A study of Homo sapiens with 6 samples.

Results

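The 10 genes described here encode proteins of epithelial cell junctions: the claudins CLDN1, CLDN3, CLDN4 and CLDN7, the other tight junction genes OCLN, F11R and TJP1, the adherens junction genes CDH1 and CTNNB1, and EPCAM. They were chosen by gene symbol, not by their values, though earlier results of these data were known. All 10 had a row in both deposited tables, among 21519 genes in the co-culture table and 9450 in the knockdown table. DLD1 is an established human colorectal cancer line. The co-culture table holds RNA-seq of wild-type DLD1 cells in the libraries titled S-CAFs-w13 and DLD1-W13CM. The protocols name a co-culture with S-CAFs and one with CAFs; By elimination DLD1-W13CM would be the one with CAFs, which its title leaves unsaid. The knockdown table holds input RNA of DLD1 cells with METTL1 knockdown by a single construct, sh2, and of control cells, sh-NT, with the peaks of their m7G immunoprecipitates (IP). METTL1 is an enzyme that writes 7-methylguanosine (m7G) into RNA. Each of the 9450 genes in the knockdown table is listed with 1 m7G peak, so genes without a peak are absent from it. Each of the 6 libraries is the only one of its group, so replicates check none of the differences below, and libraries could not be tested against each other. The knockdown cannot be told apart from other effects of sh2, nor the kind of fibroblast from any other difference in culture.

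Tight junctions seal the space between neighbouring epithelial cells near their apical side. Claudins form their strands and set which ions pass, occludin (OCLN) and JAM-A (F11R) are further membrane proteins of the same belt, and ZO-1 (TJP1) is the scaffold that ties them to actin. Below lies the adherens junction, where E-cadherin (CDH1) binds the neighbouring cell and holds beta-catenin (CTNNB1), which is also the effector of WNT signalling. EPCAM is an epithelial adhesion protein that binds claudin-7 and stabilises it. In the colon, CLDN3, CLDN4 and CLDN7 are usual claudins of the surface epithelium, and CLDN2 is a claudin that forms pores.

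CLDN4 and CLDN1 were the members past 2-fold in the co-culture comparison, in opposite directions, and CLDN3 is the neighbour of CLDN4 on chromosome 7, so the stretches before the start sites of these 3 claudins are shown. They come from RefSeq (GRCh38.p14), run 5′ to 3′ on the strand of the gene, and stop at the start site or, for CLDN1 and CLDN4, before the m7G peak that begins ahead of it. Capitals mark CG dinucleotides.
CLDN1 (chr3:190322476-190322696, minus strand): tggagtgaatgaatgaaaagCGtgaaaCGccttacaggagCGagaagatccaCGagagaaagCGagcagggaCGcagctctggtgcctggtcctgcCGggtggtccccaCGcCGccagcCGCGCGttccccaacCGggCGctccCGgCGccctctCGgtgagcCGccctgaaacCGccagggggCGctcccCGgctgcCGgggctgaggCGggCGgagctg
CLDN4 (chr7:73830746-73830951, plus strand): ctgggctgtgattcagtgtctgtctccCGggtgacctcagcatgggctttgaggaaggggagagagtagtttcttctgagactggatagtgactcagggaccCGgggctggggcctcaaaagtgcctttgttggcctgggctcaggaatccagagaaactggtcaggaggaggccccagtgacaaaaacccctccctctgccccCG
CLDN3 (chr7:73770271-73770520, minus strand): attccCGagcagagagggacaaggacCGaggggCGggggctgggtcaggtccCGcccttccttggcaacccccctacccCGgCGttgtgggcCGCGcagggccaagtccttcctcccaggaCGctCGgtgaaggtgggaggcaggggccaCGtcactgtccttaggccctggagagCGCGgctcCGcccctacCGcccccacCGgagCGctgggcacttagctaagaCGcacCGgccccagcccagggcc

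The CLDN4 stretch held 3 CG dinucleotides in 206 bases, against 24 in 221 bases for CLDN1 and 19 in 250 bases for CLDN3. Over the full RefSeq window, from 250 bases before to 50 bases after the start, CLDN4 had 5 CG dinucleotides, CLDN3 24 and CLDN1 31; the median of 34796 such windows was 14, and 29.8% of them had fewer than CLDN4. CLDN3 and CLDN4 start 60.7 kb apart and are read away from each other. CAGGTG, read on both strands as CAGGTG or CACCTG, is the E-box form bound by SNAI1 and ZEB1, repressors of CDH1. It was present in 5 of the 12 windows of the 7 members that matched the RefSeq table by symbol, those of CLDN3, CLDN7, OCLN (both windows) and TJP1, and in 20.6% of all windows. The windows of CLDN1, CLDN4 and CTNNB1 did not hold these letters, and the TATA box letters TATAAA (or TTTATA, its reverse complement) were in none of the 12 windows, against 11.6% of all. In that table of windows CDH1, EPCAM and F11R had no entry; their start sites used further on come from the RefSeq gene table. These matches describe letters in a window and were not tied to binding.

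Levels are in FPKM, which divides fragments by the length of the gene and the size of the library, so that genes can be compared within a library. EPCAM and CDH1 were the most abundant members in all 4 libraries. EPCAM had 154 FPKM in DLD1-W13CM, 149 in S-CAFs-w13, 228 in the control line's input and 235 in that of the knockdown. CDH1 stood at 133, 103, 91.7 and 80.8 FPKM in the same order, and CTNNB1 at 57.0, 75.7, 37.3 and 39.6 FPKM. In DLD1-W13CM the order below these was CLDN7 (33.9 FPKM), TJP1 (28.8), CLDN4 (28.2), CLDN1 (12.6), F11R (7.47), OCLN (6.58) and CLDN3 (6.19). CLDN1 was the lowest member in the 3 other libraries. The tables were normalized separately, so levels in one table are not compared here with levels in the other.

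**Figure D1:**
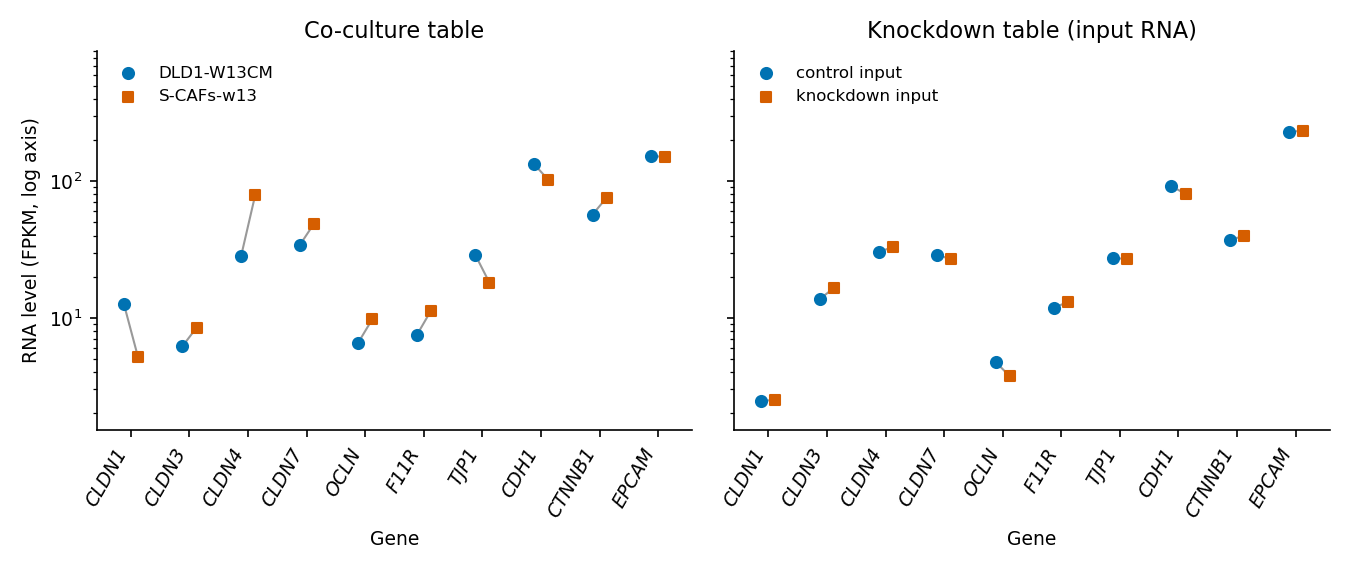
RNA level of the 10 junction genes in FPKM (log axis), 1 point per library, with the co-culture libraries on the left and the input libraries of the knockdown table on the right; lines join the libraries of a table. EPCAM and CDH1 lie highest in all 4 libraries, and CLDN4 and CLDN1 have the steepest lines, 28.2 to 78.6 FPKM and 12.6 to 5.18 FPKM, in the co-culture table.

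The expression comparisons below count a gene as past 2-fold when log2((FPKM + 1)/(FPKM + 1)) is at least 1 or at most -1, among genes whose mean over the pair is 1 FPKM or more; all 10 members passed that filter in both tables. Fold values in the text are plain FPKM ratios. Their 95% intervals were computed from whole read numbers recovered from the deposited values (exact Clopper-Pearson), the smallest numbers that those values allow, so that they may be too wide, and they cover counting error only. The effective library size, by which FPKM divides, was 6337932 for DLD1-W13CM and 6215547 for S-CAFs-w13. The recovered reads summed to 5943490 and 6439007 in the same order. The effective size of the inputs was larger, 10454179 for the control line and 11625162 for the knockdown. The targeted gene, METTL1, had 5.80 FPKM with sh-NT and 3.28 FPKM with sh2, a 1.77-fold lower level (1.37 to 2.29). Its levels of 4.82 FPKM and 1.78 FPKM in the co-culture pair made it 2.71-fold lower (1.75 to 4.29) beside S-CAFs. All 8 epithelial markers were listed in the co-culture table, 4 with a log2 ratio above 0 and 4 below. They ranged from the keratin KRT18, with 892 and 1593 FPKM, down to villin, VIL1, with 2.098 and 1.12 FPKM. Of 19 fibroblast markers 10 were in the co-culture table, summing to 10.76 FPKM for DLD1-W13CM and 12.98 FPKM for S-CAFs-w13, and 7 of them were under 1 FPKM in both. Of these PDGFRB had 0.0221 and 0.564 FPKM, a ratio of 25.5 (4.17 to 1047) on 1 and 25 reads, COL6A1 a ratio of 11.2 (1.63 to 483) on 1 and 11 reads, and COL1A1 a ratio of 4.76 (1.33 to 25.8) on 3 and 14 reads. FN1 was lower, with 3.12 and 1.71 FPKM, a ratio of 0.549 (0.456 to 0.658). Of the other fibroblast markers listed, COL5A1 (0.510), CDH2 (0.649) and ACTA2 (0.840) had ratios below 1. COL6A3 (1.02), S100A4 (1.58) and VIM (1.59) had ratios above 1. Each of these intervals included 1. S100A4, at 4.77 and 7.53 FPKM, was the largest part of both sums. The part of fibroblast RNA in the members' ratios was not tested. In these bulk samples fewer cells that carry an RNA and less of that RNA per cell cannot be told apart.

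Beside S-CAFs the member claudins diverged. CLDN4 was higher and CLDN1 lower in S-CAFs-w13 than in DLD1-W13CM, both past 2-fold. CLDN7, OCLN, F11R and CTNNB1 were higher by less than that, and TJP1 and CDH1 were lower by less than that. On the FPKM scaling EPCAM and CLDN3 differed by no more than counting error. So 1 of 10 members passed 2-fold upward, as did 9.08% of 14739 tested genes, and 1 of 10 passed it downward, as did 7.92%. These shares are near the background, and the count says nothing particular about junction genes. The counting interval lay above 1 for 5 members and below 1 for 3, against 28.7% and 25.8% of the genes with recovered reads. Genes with more reads have narrower intervals. CLDN3, the lowest member in DLD1-W13CM, lay above 58.0% of tested genes there in FPKM, so these shares are not matched for depth. At a 1.5-fold limit 1 member was higher and 2 were lower, TJP1 being added, where 20.4% and 18.5% of tested genes passed. F11R, with a plain ratio of 1.504, fell short of that limit once 1 FPKM was added.

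Claudins come first. CLDN4, a claudin that tightens the barrier to sodium in many epithelia, had 28.2 FPKM in the DLD1-W13CM library and 78.6 FPKM in that of S-CAFs-w13, on no fewer than 420 and 1148 reads. It was 2.79-fold higher (2.49 to 3.12), and 96.4% of tested genes had a lower log2 ratio. CLDN1, a claudin found along the whole lateral membrane and often raised in colorectal tumours, had 12.6 and 5.18 FPKM, on no fewer than 293 and 118 reads. It was 2.44-fold lower (1.96 to 3.04), with 5.75% of tested genes below it. These were the member ratios farthest from 1 in either direction.

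The other member claudins differed less. CLDN7, the claudin that binds EPCAM, stood at 33.9 and 48.5 FPKM and was 1.43-fold higher in S-CAFs-w13 (1.28 to 1.599). CLDN3, a sealing claudin closely related to CLDN4, stood at 6.19 and 8.46 FPKM. Its ratio was 1.37 with an interval of 0.933 to 2.01, from at least 50 and 67 reads, so a difference between CLDN3 libraries was not detectable at this depth. The makeup of the member claudins shifted accordingly: CLDN4 was 34.8% of their summed FPKM in DLD1-W13CM but 55.8% in S-CAFs-w13, CLDN7 41.9% and 34.5%, CLDN3 7.65% and 6.01%, and CLDN1 15.6% and 3.68%. CLDN4 was 2.23 times as abundant as CLDN1 in DLD1-W13CM but 15.2 times as abundant in S-CAFs-w13.

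Of the tight junction membrane proteins outside the claudins, OCLN stood at 6.58 and 9.76 FPKM, 1.48-fold higher in S-CAFs-w13 (1.27 to 1.73). F11R stood at 7.47 and 11.2 FPKM, 1.504-fold higher (1.27 to 1.78). Both membrane proteins were thus higher, while their scaffold was lower: TJP1 stood at 28.8 and 18.1 FPKM, 1.59-fold lower (1.48 to 1.71), on no fewer than 2053 and 1264 reads.

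At the adherens junction the member cadherin, CDH1, and its catenin, CTNNB1, differed in sign. CDH1 stood at 133 and 103 FPKM, 1.30-fold lower in S-CAFs-w13 (1.24 to 1.35). CTNNB1 stood at 57.0 and 75.7 FPKM, 1.33-fold higher (1.26 to 1.40). EPCAM stood at 154 and 149 FPKM, a ratio of 0.970 with an interval of 0.916 to 1.03. The log2 fold change in the authors' deposited table, which is shifted by -0.14 against the FPKM ratios, was 1.34 for CLDN4, -1.43 for CLDN1, -0.82 for TJP1, -0.52 for CDH1, -0.19 for EPCAM and 0.27 for CTNNB1. On that scaling of the log2(FPKM + 1) ratios all 10 members had the sign given above and CLDN4 and CLDN1 remained past 2-fold, while 988 of all genes passed 2-fold upward and 1545 downward (39.0% of the called genes upward) in place of 1338 and 1167 (53.4%). The median of all genes was 0.02 as deposited and -0.12 on that scaling. Genes of the mitochondrial genome took 21.5% of the recovered reads of DLD1-W13CM and 15.7% of those of S-CAFs-w13. Their part in these ratios was addressed by rescaling without them, which left the signs of the 10 members and the 2 calls as they were. The authors' scaling and the rescaling without these genes moved the log2 ratio of EPCAM by more than its counting error, to -0.19 and -0.15.

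**Figure D2:**
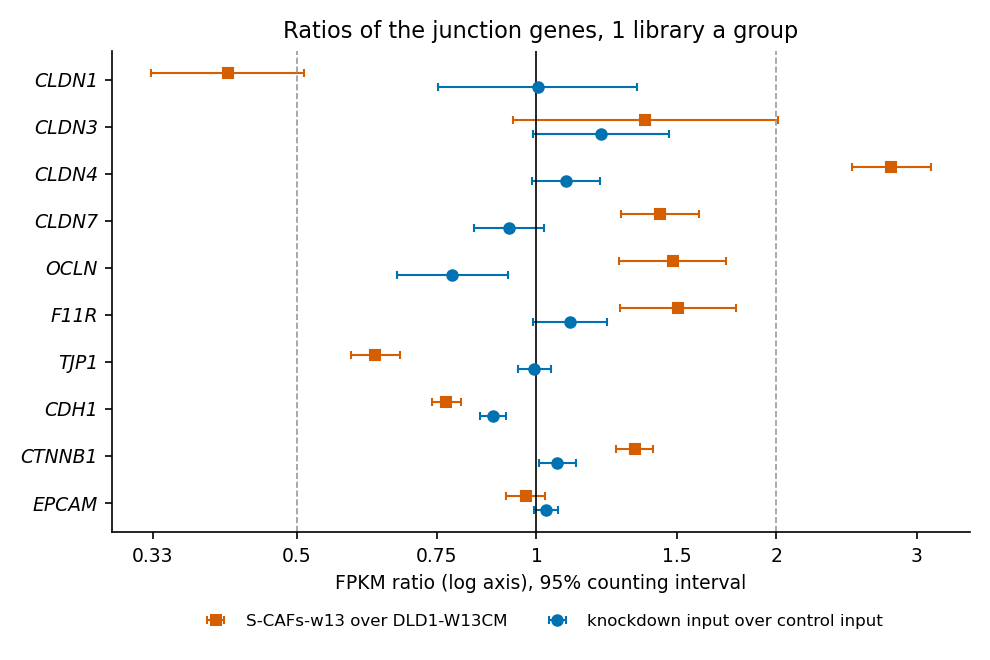
FPKM ratio (log axis) of each junction gene in S-CAFs-w13 over DLD1-W13CM (squares) and in knockdown over control input (circles); bars are 95% counting intervals, which do not cover variation between cultures, and dashed lines mark 2-fold. CLDN4 at 2.79 and CLDN1 at 0.411 stand apart from the other co-culture ratios, and all knockdown ratios lie between 0.784 and 1.20.

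Wider junction lists put the members among their partners and regulators. These lists include the 10 members themselves, 16 transcription factors and 7 genes linked to EPCAM and the protease matriptase. Of 106 genes in 8 lists, 88 were in the co-culture table and 70 were tested; in S-CAFs-w13, 5 passed 2-fold upward and 6 downward, near the 9.08% and 7.92% of all tested genes, and their median log2 ratio was 0.37, beside 0.02 for all genes. Of 8 tested claudins, 1 passed upward and 2 downward. The other lower claudin was CLDN2, at 7.68 and 2.31 FPKM, 3.32-fold lower (2.40 to 4.67). Of 8 other membrane proteins, MARVELD2 (tricellulin), which seals the corners where cells meet, was the one past 2-fold: 7.47 and 2.004 FPKM, 3.73-fold lower (2.80 to 5.03). Claudins and membrane proteins thus had members on both sides.

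Of 14 tested plaque genes, TJP3 (ZO-3), a scaffold related to TJP1, was the one past 2-fold, at 4.94 and 16.4 FPKM, and was 3.31-fold higher (2.72 to 4.06). TJP3 and TJP1 thus differed in direction. In the adherens junction list, which here also holds EPCAM, 13 of 15 genes had a log2 ratio above 0, beside 52.3% of all tested genes. The median of that list was 0.55. The adhesion protein NECTIN4 stood at 2.39 and 6.75 FPKM, 2.83-fold higher (2.05 to 3.95). CDH1 and EPCAM were the 2 genes of that list below 0. The other cadherin listed, CDH3, stood at 16.2 and 24.1 FPKM, a ratio of 1.49 (1.35 to 1.65). NECTIN2, at 0.08, had a log2 fold change of -0.06 on the authors' scaling.

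The catenins CTNND1 (p120), JUP (plakoglobin) and CTNNA1 (alpha-catenin) were higher in S-CAFs-w13 by less than 2-fold. CTNND1 stood at 41.5 and 80.4 FPKM, a ratio of 1.94 (1.80 to 2.08), and JUP at 55.9 and 96.5 FPKM, a ratio of 1.73 (1.63 to 1.83). CTNNA1 stood at 25.2 and 36.0 FPKM, a ratio of 1.43 (1.33 to 1.53). None of 6 tested desmosome genes and neither of 2 gap junction genes was past 2-fold, with medians of 0.26 and 0.42. Matriptase is a membrane protease that can cut EPCAM. The list for EPCAM and matriptase also holds ADAM10, ADAM17 and BACE2. Of its 7 genes 5 had a log2 ratio above 0 and 2 below, where 52.3% of all tested genes were above 0. PRSS8 (prostasin) was the one past 2-fold, at 12.1 and 44.2 FPKM, 3.66-fold higher (3.16 to 4.26). Matriptase itself, ST14, stood at 58.2 and 43.5 FPKM, a ratio of 0.748 (0.671 to 0.833).

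Among the transcription factors known to maintain or repress junction genes, 3 of 10 tested passed 2-fold downward and 0 upward. Of all tested genes 7.92% and 9.08% did so. A log2 ratio above 0 was found for 6 of the 10, beside 52.3% of all tested genes, and their median was 0.40. GRHL2, an activator of CDH1 and claudin genes, stood at 14.3 and 5.58 FPKM, 2.56-fold lower (2.18 to 3.01). The intestinal factor CDX2 stood at 19.0 and 6.83 FPKM, 2.78-fold lower (2.33 to 3.32). OVOL2, a repressor of ZEB1, stood at 2.54 and 0.740 FPKM, and its interval, from 1.53-fold higher to 33.9-fold lower on at least 7 and 2 reads, included no difference. Of those above 0, KLF5, a factor of proliferating intestinal epithelium, stood at 81.5 and 126 FPKM, a ratio of 1.54 (1.46 to 1.63), and the epithelial factor ELF3 at 20.9 and 30.4 FPKM, a ratio of 1.46 (1.34 to 1.58). The repressor SNAI1 stood at 3.18 and 6.01 FPKM, a ratio of 1.89 (1.23 to 2.96), and ZEB1 at 0.347 and 0.316 FPKM.

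**Figure D3:**
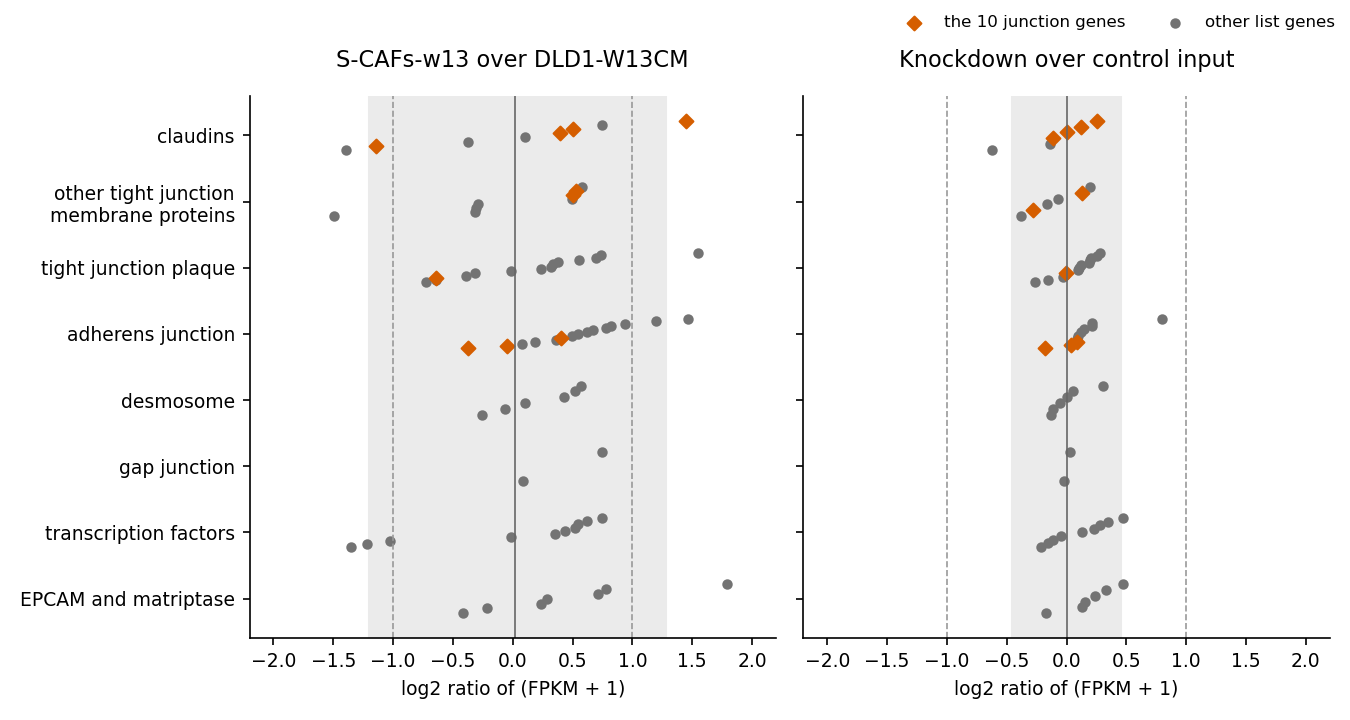
log2 ratio of (FPKM + 1) for each tested gene of the 8 junction lists, in the co-culture comparison (left) and the knockdown comparison (right); diamonds are the 10 junction genes, the grey band spans the 5th to 95th percentile of all tested genes, the solid line is their median and dashed lines mark 2-fold. On the left 11 list genes lie past 2-fold; on the right 0 do.

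In the METTL1 knockdown no member differed from its control level by as much as 1.5-fold. Of the 10 members 0 were past 2-fold in the knockdown input, where 0.429% of 8400 tested genes passed it upward and 0.560% downward, and their median log2 ratio was 0.02, beside 0.01 for all genes. With so few genes past 2-fold in all, that count says nothing particular about junction genes. The counting interval included 1 for 7 members; it lay below 1 for OCLN and CDH1 and above 1 for CTNNB1, where 23.0% of genes with recovered reads lay below and 24.8% above. A gene with more reads has a narrower interval, so CDH1 passes with a small difference.

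OCLN had 4.75 FPKM with sh-NT and 3.73 FPKM with sh2, and was 1.28-fold lower (1.09 to 1.497) on no fewer than 336 and 293 reads. CDH1 stood at 91.7 and 80.8 FPKM, 1.13-fold lower (1.09 to 1.18). CTNNB1 stood at 37.3 and 39.6 FPKM, 1.06-fold higher (1.01 to 1.12). OCLN was thus the member farthest below its control level, and CLDN3 the one farthest above.

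CLDN3 stood at 13.7 and 16.5 FPKM, a ratio of 1.20 (0.990 to 1.47). CLDN4 stood at 30.2 and 32.9 FPKM, a ratio of 1.09 (0.986 to 1.20), and CLDN7 at 29.0 and 26.8 FPKM, a ratio of 0.923 (0.834 to 1.02). CLDN1 stood at 2.48 and 2.49 FPKM, a ratio of 1.003 (0.753 to 1.34), on no fewer than 95 and 106 reads.

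TJP1 stood at 27.2 and 27.1 FPKM, a ratio of 0.994 (0.947 to 1.04), F11R at 11.9 and 13.1 FPKM, a ratio of 1.102 (0.991 to 1.23), and EPCAM at 228 and 235 FPKM, a ratio of 1.03 (0.992 to 1.06). CLDN4, CLDN1 and TJP1, the members farthest from 1 in the co-culture comparison, were all near 1 here. The log2 ratio had the same sign in the 2 comparisons for 6 of 10 members, beside 51.9% of 7945 genes tested in both tables; the difference between the comparisons was not tested.

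Of 58 tested genes of the junction lists in the knockdown comparison, 0 were past 2-fold, with a median of 0.09. NECTIN4 stood at 2.87 and 5.72 FPKM, a ratio of 1.996 (1.58 to 2.54), and CLDN2 at 10.7 and 6.61 FPKM, a ratio of 0.617 (0.525 to 0.724). GRHL2 stood at 14.8 and 16.2 FPKM and CDX2 at 48.8 and 43.8 FPKM. S100A4, the 1 fibroblast marker among the peak-bearing genes of the knockdown table, stood at 5.79 and 11.2 FPKM. Its part in these ratios was not tested.

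Each member had 1 m7G peak, as did every gene listed in the knockdown table. All 10 member peaks were annotated to the 5′ UTR, the transcribed stretch before the coding sequence, beside 49.5% of 9450 peaks. In the wider junction lists 37 of 60 peaks (61.7%) had that annotation, and of 13 plaque genes 4 did. The 60 peaks include those of the 10 members, which raise that share, so it is not one of other genes alone. The peaks of the 10 members also all held a RefSeq start site of their gene, beside 71.7% of the 5′ UTR peaks and 57.1% of all peaks whose gene matched RefSeq. Since m7G also forms the cap at the 5′ end of every mRNA, a peak at the start site may hold the cap as well as internal m7G; the files do not separate them.

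In GRCh38 coordinates the CLDN4 peak ran from 73830952 to 73831217 on chromosome 7, from 44 bases before the start site to 221 after it. The CLDN3 peak (chromosome 7, 73769944 to 73770270) began at the start site itself and the CLDN1 peak (chromosome 3, 190322237 to 190322475) 29 bases before it. The CLDN7 peak (chromosome 17, 7262171 to 7262616) held the downstream of 2 RefSeq starts and began 138 bases before it. These claudin peaks were single blocks of 239 to 446 bases.

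EPCAM (chromosome 2, 47369222 to 47369701) also had a single block, of 480 bases. The peaks of CDH1 (chromosome 16, 68737255 to 68738388), CTNNB1 (chromosome 3, 41198749 to 41200140), OCLN (chromosome 5, 69492471 to 69509202), F11R (chromosome 1, 161001227 to 161021288) and TJP1 (chromosome 15, 29822026 to 29956323) had 2 to 4 blocks with gaps between them. The TJP1 block at the start site held 478 bases, and its other block, of 92 bases, began at -133855 bases from that start, which is 12726 bases into the gene from another, farther RefSeq start. Blocks far apart thus belong to one listed peak, and its values are not those of the start site alone.

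**Figure D4:**
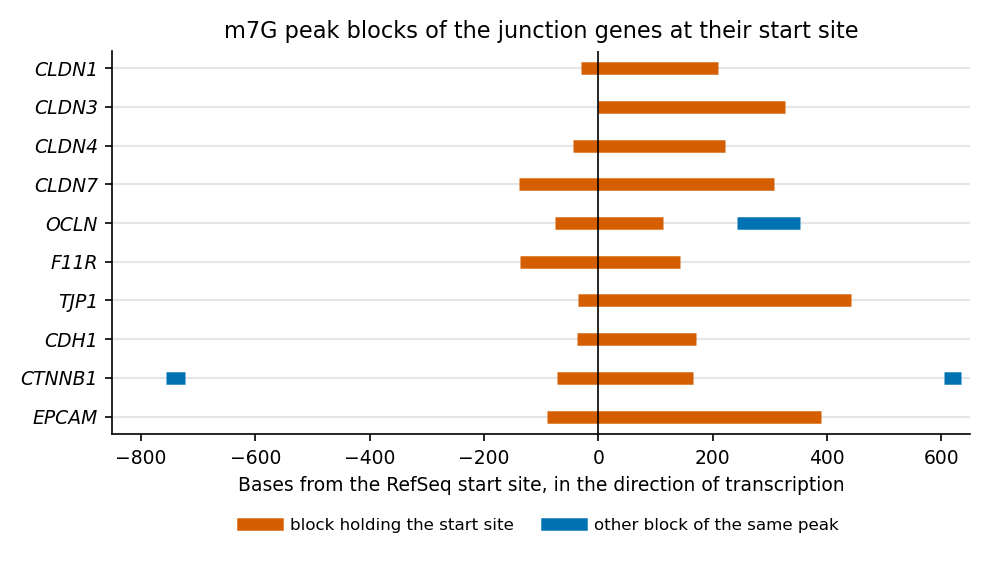
Blocks of the m7G peak of each junction gene, in bases from the RefSeq start site that the peak holds (0), in the direction of transcription. All 10 peaks have a block across the start site, beginning 0 to 138 bases before it; blocks farther off (OCLN, F11R, TJP1 and CDH1) lie outside the range shown.

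Fold enrichment of IP over input, the authors' value for each peak over libraries that the table does not name, ranged from 7.69 for CLDN3 to 45.9 for CLDN7 among the members, with a median of 21.3, beside 14.9 for all 5′ UTR peaks. The values in the authors' deposited table were 8.94 for CLDN1, 15.5 for CLDN4, 18.7 for CDH1, 20.8 for TJP1, 21.8 for F11R, 23.4 for OCLN, 24.3 for EPCAM and 28.3 for CTNNB1. CLDN7 lay above 93.2% of 5′ UTR peaks, and CLDN3 above 16.7%. EPCAM, the member with the most RNA, lay above 74.3%.

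The m7G change is read here as sh2 over sh-NT. The numerator is not stated, and under the opposite reading each sign below turns. By the FDR that the authors' deposited table lists, 0 of the 10 member peaks passed 0.05, where 3.07% of all peaks were higher and 2.18% lower; the smallest member FDR was 0.226. At an unadjusted p under 0.05 by the authors' deposited table, the peaks of 2 members were higher and 1 lower, beside 8.60% and 7.50% of all peaks. CLDN4 and OCLN, 2 of 10 members, had p under 0.05 in the authors' deposited table for both input RNA and m7G, beside 8.98% of all genes. For CLDN4 the counting interval of the input RNA, 0.986 to 1.20, included 1, so the criteria differ for that gene. By sign 5 member peaks were higher and 5 lower, with a median log2 change of 0.04. Their median size was 0.51, beside 0.52 over all peaks.

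In the authors' deposited table the 3 with an unadjusted p under 0.05 were CLDN4, with a log2 m7G change of -0.55 (p = 0.0224, FDR 0.226), OCLN, with 0.89 (p = 0.0355, FDR 0.291), and CLDN3, with 1.20 (p = 0.0468, FDR 0.338). The largest size belonged to CLDN1, with -2.04 (p = 0.0617, FDR 0.385 in the authors' deposited table), larger than in all but 2.62% of peaks, on the member RNA with the fewest reads. The authors' deposited table gave TJP1 a change of 0.54, F11R -0.48, CLDN7 -0.32, CTNNB1 0.18, CDH1 0.17 and EPCAM -0.09. The most abundant members, EPCAM, CDH1 and CTNNB1, thus had the smallest changes.

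For the neighbours CLDN3 and CLDN4 the m7G values went in opposite directions, while both RNAs had ratios above 1 in the knockdown. OCLN had a higher m7G value and less input RNA; the m7G change is measured against the same input libraries, so the 2 values are not independent. In the wider lists 2 of 60 peaks had an FDR below 0.05 by the authors' deposited table: that of the scaffold MAGI3 (3′ UTR, chromosome 1, 113683676 to 113683856), with a log2 change of -1.99 and an FDR of 0.000813, and that of afadin, AFDN (coding sequence, chromosome 6, 167951967 to 167962640), with 0.45 and 0.00347. With 1 IP and 1 input library of each line, these p-values and FDRs do not cover variation between cultures.

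**Figure D5:**
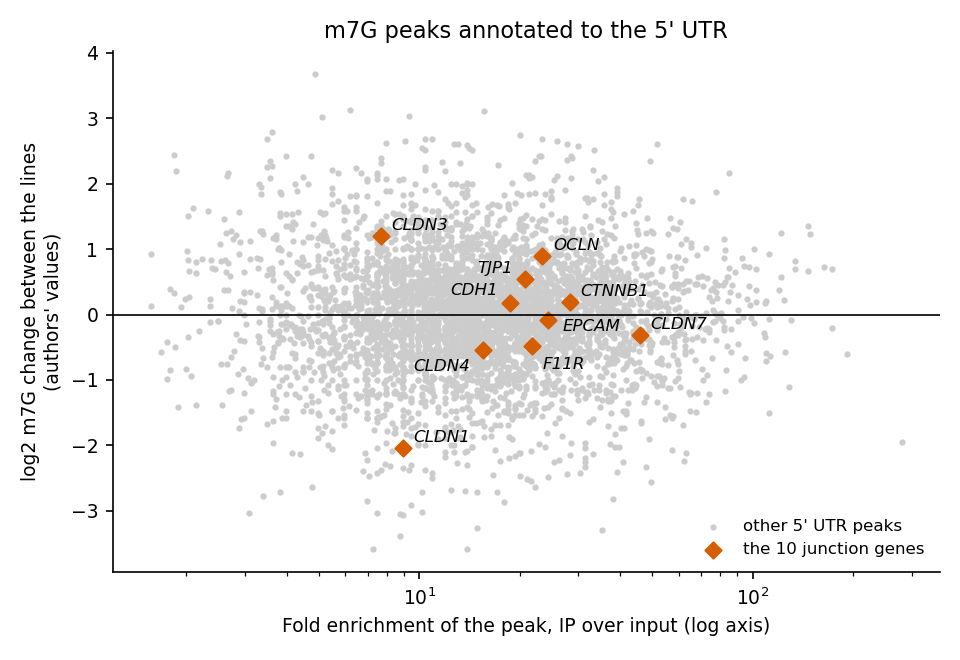
Fold enrichment of IP over input (log axis) against the log2 m7G change between the lines (read as knockdown over control), both the authors' values, for the 10 junction genes (diamonds) and the other 5′ UTR peaks (grey). CLDN1 at -2.04 and CLDN3 at 1.20 lie farthest from 0 among the members and have low enrichment, 8.94 and 7.69; CLDN7 has the highest, 45.9.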

How the data were processed

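Per the labels' protocols, total RNA of DLD1 cells went into Illumina TruSeq libraries. HISAT2 2.1.0, featureCounts 1.6.3, cutadapt 2.5, SAMtools 1.10, HOMER 4.10.4 and DESeq2 appear in the submitters' processing notes with no role given, as do GRCh38, hg38 and the mouse build GRCm38. For the peak caller, the sources used here give no name. The authors deposited FPKM values; for the input columns of the knockdown table that unit was inferred from their levels. They also deposited log2 fold changes with p-values and FDRs, and for each peak a fold enrichment (a ratio), a log2 m7G change with log10 values for p and FDR, per the file headers. Each peak's own log10 p-value, deposited by the authors and treated as a score because it is minus infinity where p is 0, supports no result. The authors' deposited group code, whose meaning is not stated, was 2 for the 849 genes with p under 0.05 for both input RNA and m7G.

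Read numbers were recovered from the FPKM pairs: up to 1 factor per table, the pair's quotient equalled that of whole numbers for 20805 of 20806 co-culture genes and all 9348 knockdown genes with no value at 0 (relative tolerance 1e-12). RefSeq lengths of 25 mitochondrial genes gave the library size of the co-culture table; lengths recovered there (76.0% of 300 matched) gave that of the knockdown table. The smallest whole reads giving a whole length were used. The recovery was tested on simulated data with known gene lengths. The step that carries lengths from the co-culture table to the knockdown table was not simulated. Of the peaks, 9044 matched a RefSeq gene (GRCh38.p14) by symbol and 99.5% of these lay within 1000 bases of it, so GRCh38 was taken as their build. Alternatives were the pseudocount (0.1 FPKM), the filter (none, or 5 FPKM), scaling, a 1.5-fold limit, the counting interval, and FDR or p limits. All 10 members were named, with METTL1 and list genes past 2-fold or at an FDR under 0.05 (not all are reported here). Some list genes were named after their values were seen. The epithelial ones were KRT8, KRT18, KRT19, KRT20 and VIL1. The fibroblast ones were S100A4, PDGFRB, COL6A1, COL1A1, FN1, COL5A1, COL6A3, CDH2, ACTA2 and VIM. From the junction lists they were CTNND1, CTNNA1, JUP, CDH3, NECTIN2, ST14, KLF5, ELF3, SNAI1 and ZEB1. The members and lists were chosen with earlier results of these data known. Scripts ran in Python 3.11.15 with SciPy 1.17.1.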

Additional observations from a re-analysis of the deposited data

How the results depend on the processing

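Of the 10 members, the counts of 1 upward and 1 downward in S-CAFs-w13 and 0 in the knockdown were the same with a pseudocount of 0.1 FPKM, no filter, a mean of at least 5 FPKM and the authors' scaling, and for S-CAFs-w13 also without the mitochondrial genome. At 1.5-fold, CLDN1 and TJP1 made 2 lower in S-CAFs-w13. By the counting interval, an alternative chosen after the data were seen, 5 lay above 1 and 3 below it in the co-culture, and 1 higher and 2 lower in the knockdown. Over all genes in S-CAFs-w13, 1939 were higher and 1777 lower with a pseudocount of 0.1 FPKM, 639 higher and 539 lower at a mean of at least 5 FPKM, 3004 and 2722 at 1.5-fold, and 4155 and 3741 by the interval. In the knockdown these counts were 103 higher and 112 lower with 0.1 FPKM, 7 and 16 at 5 FPKM, 210 and 225 at 1.5-fold, and 2066 and 1918 by the interval. For m7G, 150 peaks were higher and 93 lower at an FDR under 0.01, with 0 members, and 813 and 709 at p under 0.05, with 2 and 1 members. Stricter or looser limits move these counts by construction; for the pseudocount the cause was not tested. Rescaled without the mitochondrial genome, 45.8% of called genes were higher. Of 50 member log2 ratios under other pseudocounts or scalings, 8 moved by more than their counting error, those of TJP1, CDH1, EPCAM and CTNNB1 in the co-culture under the scalings, and 1 changed sign, CLDN1 in the knockdown. No paired analysis was possible because each group has 1 library. CLDN3, with at least 50 and 67 reads in the co-culture, is limited by depth.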

Other observations

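The deposited FPKM values and the authors' log2 fold changes of the co-culture rest on different library totals. The recovered reads sum to 5943490 for DLD1-W13CM and 6439007 for S-CAFs-w13, and scaling by these sums shifts every log2 FPKM ratio by -0.14, the shift seen in the authors' deposited table. For EPCAM, near 1 in FPKM, the log2 ratio goes from -0.04 to -0.19 on that scaling.

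Of the 4 keratins in the epithelial marker list, KRT8, KRT18 and KRT19 were higher in S-CAFs-w13 and KRT20 was not. KRT8 stood at 754 and 1051 FPKM, a ratio of 1.39 (1.37 to 1.41). KRT19, a keratin of simple epithelia, stood at 120 and 273 FPKM, 2.27-fold higher (2.14 to 2.40). KRT20, a marker of differentiated colon cells, stood at 17.1 and 17.5 FPKM, a ratio of 1.02 (0.838 to 1.25).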
